A study of Mus musculus with 4 samples.

Results

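Regulatory T cells of mouse lungs carrying KP tumours were picked out cell by cell from their own RNA. A cell was counted as one when it held at least 2 unique molecular identifiers (UMIs, each standing for 1 captured RNA molecule) of the CD3 genes Cd3d, Cd3e and Cd3g together and at least 1 UMI of Foxp3, with no UMI of Cd8a or Cd8b1, at most 1 UMI of the cell cycle genes Mki67 and Top2a, and none of Csf1r or Cd79a, which mark macrophages and B cells. Of 23730 cells with at least 200 detected genes and at most 10% mitochondrial UMIs, 137 met all of these limits. They were 33 cells of the KO anti-PD-1 library, 21 of the KO IgG library, 48 of the WT anti-PD-1 library and 35 of the WT IgG library. Foxp3, CD3, CD8, cell cycle, Csf1r and Cd79a values chose the cells and are given only as a description.

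Regulatory T cells are the CD4 lineage that holds other immune cells in check, and the transcription factor Foxp3 sets up and keeps their programme. They capture interleukin-2 through the high-affinity receptor subunit Il2ra, strip costimulatory ligands from antigen-presenting cells through Ctla4, and in tissues a subset responds to interleukin-33 through Il1rl1 and releases the repair factor Areg. In tumours they are known for high levels of TNF-family receptors such as Tnfrsf18 (GITR), Tnfrsf4 (OX40) and Tnfrsf9 (4-1BB).

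The lungs came from B6 mice injected intravenously with KP cells, mouse lung cancer cells without P53. The 4 groups were made, each as 1 library with no replicate: Asf1a KO tumours with anti-PD-1, Asf1a KO tumours with IgG, WT tumours with anti-PD-1 and WT tumours with IgG. Asf1a, a histone chaperone, was lost in the injected cancer cells only, as far as the labels say, so the T cells described here are host cells in all 4 libraries. Anti-PD-1 (clone 29F.1A12) was given at 200 µg per mouse, 3 times a week for 1 week. Whole perfused lung was digested with collagenase D and DNase I and sorted for live cells, so tumour and surrounding lung cannot be told apart.

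The libraries held 16078095 (KO anti-PD-1), 17578188 (KO IgG), 22369904 (WT anti-PD-1) and 22506737 (WT IgG) UMIs. The regulatory T cells were shallow, with a median of 1337, 1408, 1667 and 2064 UMIs per cell in these libraries, and 284569 UMIs in all. Asf1a itself was at 12.4 CPM (UMI counts scaled to a total of 1000000 for the cells summed) in KO anti-PD-1 and 11.5 CPM in KO IgG cells with at least 5 UMIs of epithelial and tumour markers, against 29.2 CPM in WT anti-PD-1 and 29.4 CPM in WT IgG cells of that kind. It was lower in both libraries labelled KO; the marker choice takes in normal lung epithelium as well as tumour cells. In the regulatory T cells Asf1a had 1, 1, 1 and 3 UMIs. Every interval below is a 95% exact interval that covers counting error of 1 library only, and says nothing of the spread between mice, because each group is 1 library.

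Not all of the RNA in these cells was of T cell kind. Of the 137 cells, 7 held at least 20 UMIs of a marker list of another cell type, a limit chosen after the values were seen, against 28 of 619 Foxp3-negative CD4 T cells. They numbered 3, 2, 1 and 1 in KO anti-PD-1, KO IgG, WT anti-PD-1 and WT IgG, and held 19.3%, 25.2%, 2.15% and 2.79% of the regulatory T cell UMIs. One KO IgG cell of 6800 UMIs carried 311 of that library's 341 dendritic cell marker UMIs, Cd74 (159 UMIs) and H2-Aa (50 UMIs) among them, and 43 Arg1 UMIs. One KO anti-PD-1 cell of 7341 UMIs carried 22 UMIs of Ccr7, 29 of Fscn1 and 92 of Ccl5. The other marked cells were led by 20 dendritic cell marker UMIs (KO anti-PD-1) or by neutrophil markers, with 94 (KO anti-PD-1), 75 (KO IgG), 62 (WT anti-PD-1) and 39 (WT IgG) UMIs. Of 12 dendritic cell markers, 5, 5, 5 and 6 were at 0 in the regulatory T cells of KO anti-PD-1, KO IgG, WT anti-PD-1 and WT IgG, Xcr1 and Clec9a in all 4. Summed, that list was at 2852, 9498, 1405 and 786 CPM with all cells and at 1440.2, 1081, 1403 and 798 CPM without the 7 cells. Neutrophil markers were at 3028, 3482, 1735 and 1470.5 CPM, and at 1462, 1416, 1099 and 1103 CPM without them. Results between libraries that rest on these 7 marked cells are given with and without them.

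The label was checked on markers that took no part in choosing the cells. Ikzf2 (Helios), a transcription factor that stabilises the regulatory T cell state, had a UMI in 121 of the 137 cells (88.3%). Ctla4 had one in 94 cells (68.6%) and Il2ra in 28 cells (20.4%). At least 1 of these 3 genes was detected in 128 cells (93.4%). In neutrophils of the same libraries, which should lack these genes and had median depths of 821 to 1312 UMIs, the shares were 0.890% for Ikzf2, 2.02% for Ctla4, 0.252% for Il2ra and 3.07% for any of the 3. Foxp3-negative CD4 T cells, with a Cd4 UMI and a median of 2020 UMIs, lay in between at 30.5% for Ikzf2, 42.3% for Ctla4 and 4.04% for Il2ra. Since 98 of the 137 chosen cells held only 1 Foxp3 UMI, regulatory T cells with no captured Foxp3 can be among these Foxp3-negative cells. Their part in the levels of Foxp3-negative CD4 T cells, here and below, was not tested. With each cell thinned to 1000 UMIs, which left 100 cells, 73 held Ikzf2, 47 held Ctla4 and 9 held Il2ra. The markers thus go with the name regulatory T cell, while Il2ra was seen in a minority at this depth.

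Levels of the markers were higher in the regulatory T cells than in the Foxp3-negative CD4 T cells of every library. Ikzf2 was at 1338 CPM in KO anti-PD-1, 2590.2 in KO IgG, 2033 in WT anti-PD-1 and 1695 in WT IgG regulatory T cells, against 376, 407, 500.4 and 358 CPM in the Foxp3-negative cells of the same libraries. The means over the 4 libraries were 1914 ± 533 CPM and 410.3 ± 63.3 CPM (SD, n = 4 libraries of different groups), a ratio of 4.67, and the ratios within libraries ran from 3.56 to 6.37. Ctla4 was at 1127, 1198, 777 and 888 CPM in regulatory T cells, against 550.1, 301, 456 and 290 CPM, a ratio of means of 2.50. Il2ra was at 106, 334, 117 and 317 CPM, against 39.6, 35.1, 25.6 and 28.3 CPM, a ratio of 6.79. For each of the 3 genes, the lowest library of regulatory T cells lay above the highest library of Foxp3-negative cells. Il2ra rested on few molecules, since 1 WT IgG cell held 54.8% of that library's 31 UMIs and 1 KO anti-PD-1 cell held 50% of 6.

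**Figure D1:**
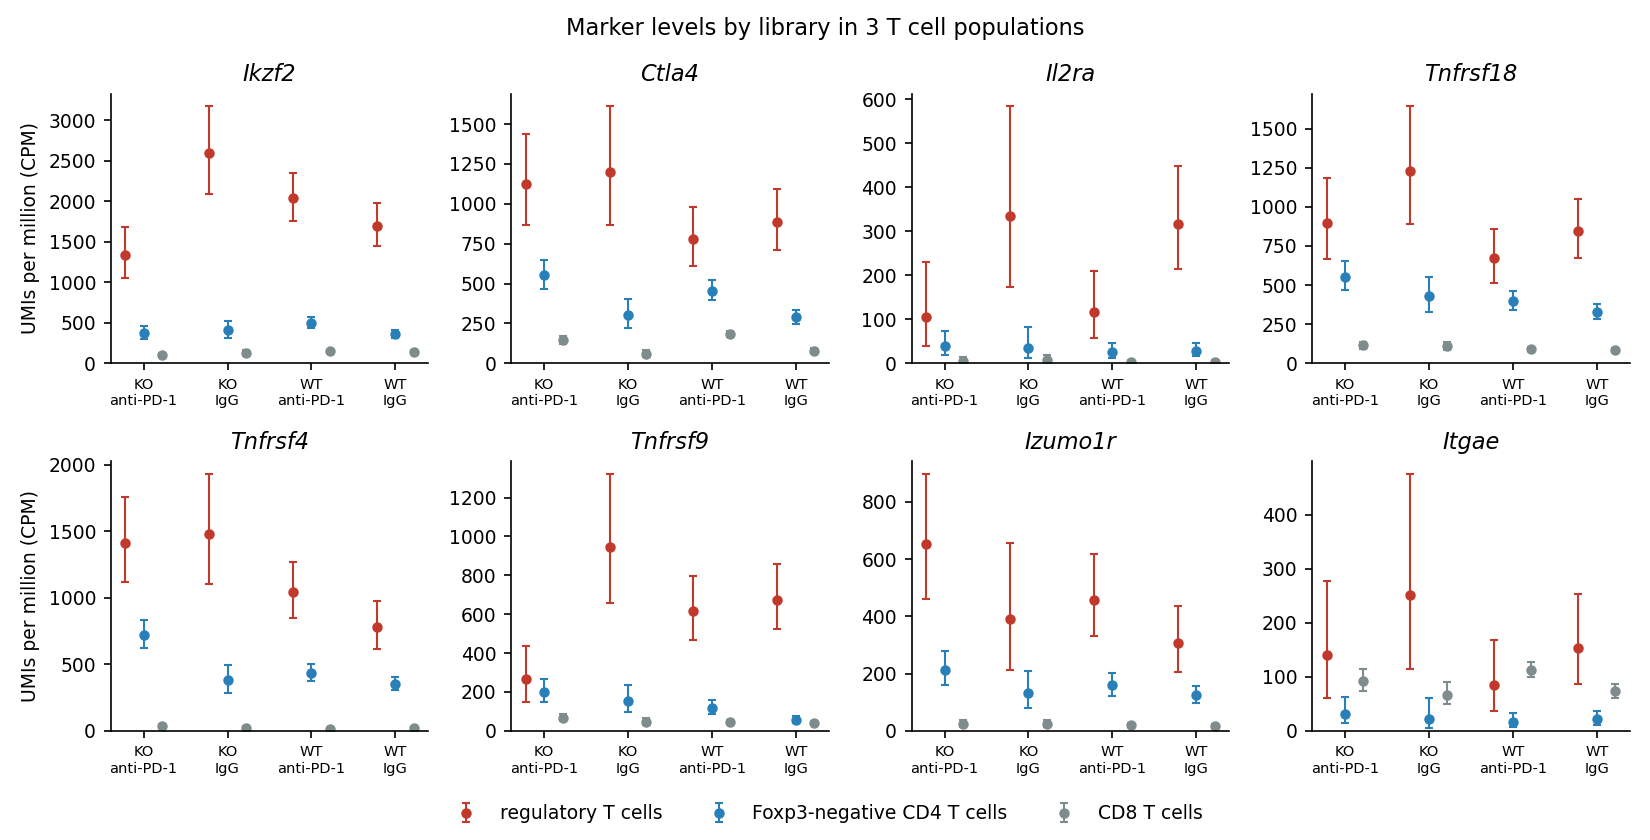
Levels of regulatory T cell markers in each library, in CPM, in regulatory T cells, Foxp3-negative CD4 T cells and CD8 T cells, with 95% exact counting intervals. Ikzf2 and Ctla4 are higher in the regulatory T cells of all 4 libraries, and Ikzf2 is highest in the KO IgG cells at 2590.2 CPM.

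Most cells passed on a single Foxp3 molecule. Foxp3 had 1 UMI in 98 cells, 2 UMIs in 26 cells and 3 or more in 13 cells, up to 5. Across this limit Ikzf2 and Ctla4 were close and Il2ra was not: Ikzf2 was at 2037 CPM with 2 or more Foxp3 UMIs and at 1745 CPM with 1, Ctla4 at 974 and 919 CPM, and Il2ra at 318 and 152 CPM. Just inside the CD3 limit, 28 cells with exactly 2 CD3 UMIs had 2871 CPM of Ikzf2, and just outside it, 21 Foxp3-positive cells with 1 CD3 UMI had 2121 CPM. The 35 Foxp3-positive cells with no CD3 UMI had only 245 CPM of Ikzf2 and 187 CPM of Ctla4. The 16 Foxp3-positive cycling cells left out, at a median of 6852 UMIs, had 1295 CPM of Ikzf2, and the 23 with CD8 UMIs had 707 CPM. Among CD8 T cells chosen without regard to Foxp3, 15 of 2102 (0.714%, interval 0.400% to 1.17%) held a Foxp3 UMI, and among neutrophils 11 of 5953 (0.185%).

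**Figure D2:**
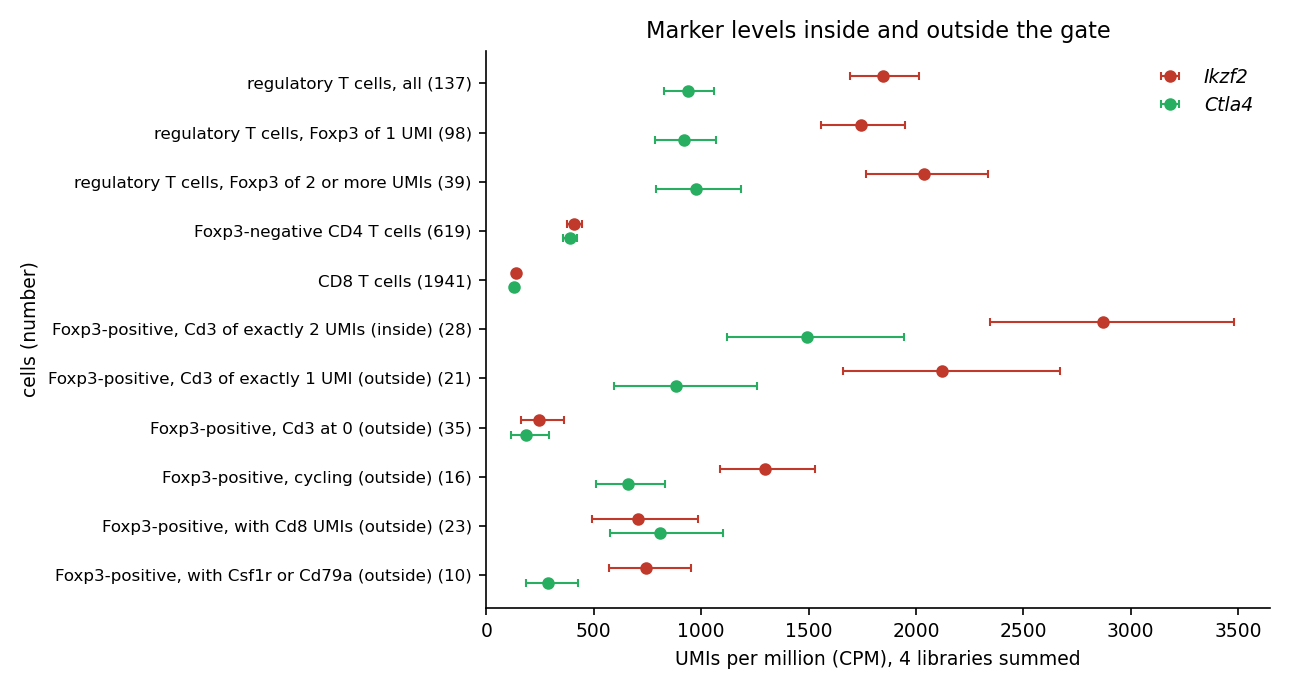
Ikzf2 and Ctla4 levels (CPM, 95% exact counting intervals) in Foxp3-positive cells just inside and just outside each limit of the choice, beside Foxp3-negative CD4 and CD8 T cells. Cells with 1 CD3 UMI sit near the chosen cells for Ikzf2 (2121 CPM), while those with no CD3 UMI sit at 245 CPM.

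Regulatory T cells were rare in every library, and in none of the 4 pairs of libraries compared did their share of kept cells differ beyond counting error. They were 0.581% (0.400% to 0.815%) of kept cells in KO anti-PD-1, 0.349% (0.216% to 0.532%) in KO IgG, 0.764% (0.564% to 1.01%) in WT anti-PD-1 and 0.609% (0.425% to 0.846%) in WT IgG. The ratio of shares was 0.572 (0.317 to 1.01) for KO IgG over WT IgG, 1.25 (0.794 to 1.997) for WT anti-PD-1 over WT IgG, 1.67 (0.936 to 3.03) for KO anti-PD-1 over KO IgG and 0.761 (0.473 to 1.21) for KO anti-PD-1 over WT anti-PD-1. Of all T cells they made up 3.18%, 2.41%, 2.68% and 2.22% in KO anti-PD-1, KO IgG, WT anti-PD-1 and WT IgG, again with intervals of every ratio that included 1. Of CD4-type T cells, counted as these cells plus Foxp3-negative T cells with a Cd4 UMI, they were 20% (14.2% to 26.9%), 21.6% (13.9% to 31.2%), 20% (15.1% to 25.6%) and 13.8% (9.79% to 18.6%). Cd4 was not asked of the regulatory T cells and was found in 39 of the 137 (28.5%). Foxp3-negative CD4 T cells without a Cd4 UMI were thus missed while regulatory ones were not. These shares cannot be read as the part of all CD4 T cells. The KO IgG and WT anti-PD-1 intervals of kept cells did not overlap, but those libraries differ in both tumour genotype and antibody and were not compared. The order changed with the denominator: KO IgG was lowest of kept cells and highest of CD4-type T cells. With at least 2 Foxp3 UMIs asked for, 4, 10, 14 and 11 cells were left in KO anti-PD-1, KO IgG, WT anti-PD-1 and WT IgG, and the ratio of kept-cell shares for KO anti-PD-1 over KO IgG was 0.424 in place of 1.67. A choice that takes 1 Foxp3 molecule also follows depth, which was lowest in KO anti-PD-1 and highest in WT IgG regulatory T cells, and the part of depth in these shares was not tested.

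**Figure D3:**
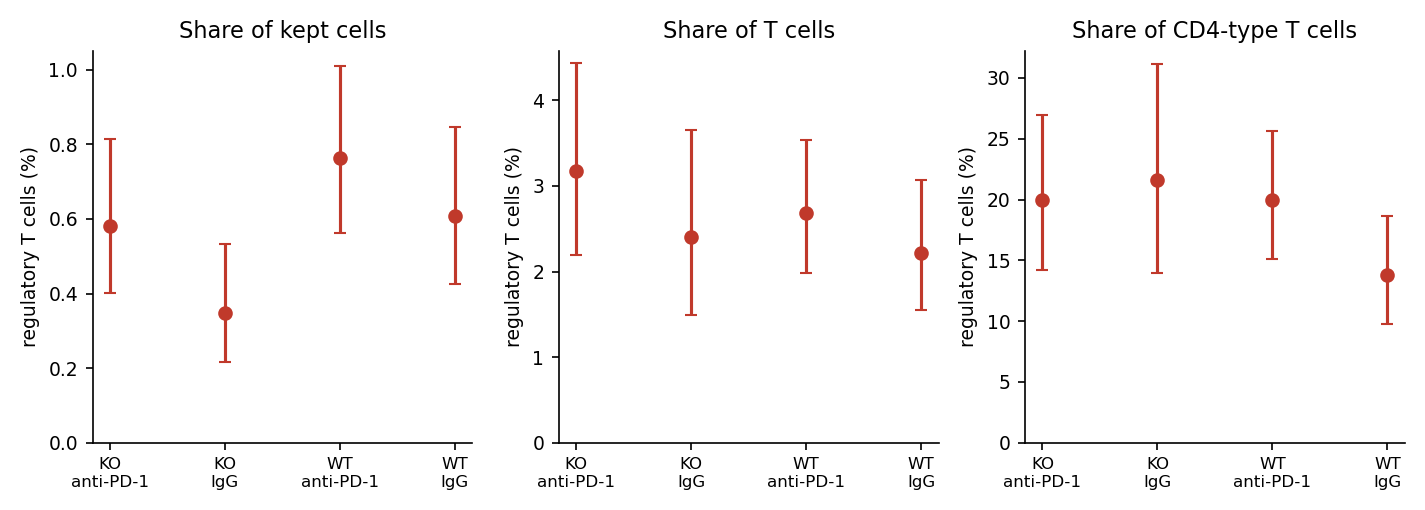
Share of regulatory T cells in each library, in percent of kept cells, of T cells and of CD4-type T cells, with 95% exact binomial intervals. The intervals overlap for each denominator except those of KO IgG and WT anti-PD-1 of kept cells, and WT IgG is lowest of CD4-type T cells at 13.8%.

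Over all genes, 14 of 2711 tested (0.516%) were at least 2-fold higher in regulatory T cells than in Foxp3-negative CD4 T cells in every library: Il1rl1, Itgae, Il2ra, Swap70, Ecm1, Matk, Ikzf2, Neb, Arl5a, Lig1, Snx18, Ctla2a, Izumo1r and Fgl2. Another 3 genes (0.111%) were at least 2-fold lower in every library: Ccl4, Tnfsf8 and Xcl1. Both counts follow from how the cells were chosen and carry no test. Some calls rest on few UMIs, with a counting interval of the ratio that included 1. In KO IgG these were Swap70 and Matk (3 against 3 UMIs each), Lig1 (4 against 3), Neb and Fgl2 (5 against 5 each). In WT anti-PD-1 they were Il1rl1 (2 against 4) and Matk (9 against 17). The others were Il2ra in KO anti-PD-1 (6 against 10) and Xcl1 in WT IgG (2 against 35). Asking for 3 libraries in place of 4 is an easier condition, and gave 35 higher and 10 lower genes without KO anti-PD-1, 19 and 9 without KO IgG, 34 and 6 without WT anti-PD-1, and 25 and 9 without WT IgG. Of the 14 higher genes, 6 passed with cells thinned to 1000 UMIs and 7 with at least 2 Foxp3 UMIs, and of the 3 lower genes 0 and 1 did. The genes include the receptor for interleukin-33, an integrin chain that binds epithelial E-cadherin (Itgae, CD103), the folate receptor family member Izumo1r (FR4) and the fibrinogen-like suppressive protein Fgl2. The DNA ligase Lig1 belongs to replication, and the kinase Matk acts on Src family kinases.

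Il1rl1 was at 106 CPM in KO anti-PD-1, 473 in KO IgG, 21.3 in WT anti-PD-1 and 153 in WT IgG regulatory T cells, against 11.9, 14.0, 9.31 and 41.6 CPM in Foxp3-negative CD4 T cells. It was seen in 2, 10, 2 and 6 cells, so that KO IgG, with the fewest cells, had the most that held it. Itgae was at 141, 251, 85.2 and 153 CPM, against 31.7, 21.0, 16.3 and 21.7 CPM, a ratio of means of 6.95. Izumo1r had the steadiest ratio, between 2.45 and 3.05 in all 4 libraries, with 651, 390, 458 and 306 CPM in regulatory T cells, against 214, 133, 158 and 125 CPM. Ctla2a, a cathepsin inhibitor, was at 845, 863, 447 and 909 CPM, against 392.1, 224, 191 and 228 CPM. Fgl2 was at 335, 139, 266 and 163 CPM, against 107, 35.1, 130.3 and 70.0 CPM. Swap70 was at 229, 83.6, 106 and 81.7 CPM, against 43.6, 21.0, 20.9 and 6.66 CPM, but 84.6% of its 13 UMIs in KO anti-PD-1 came from 1 cell.

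**Figure D4:**
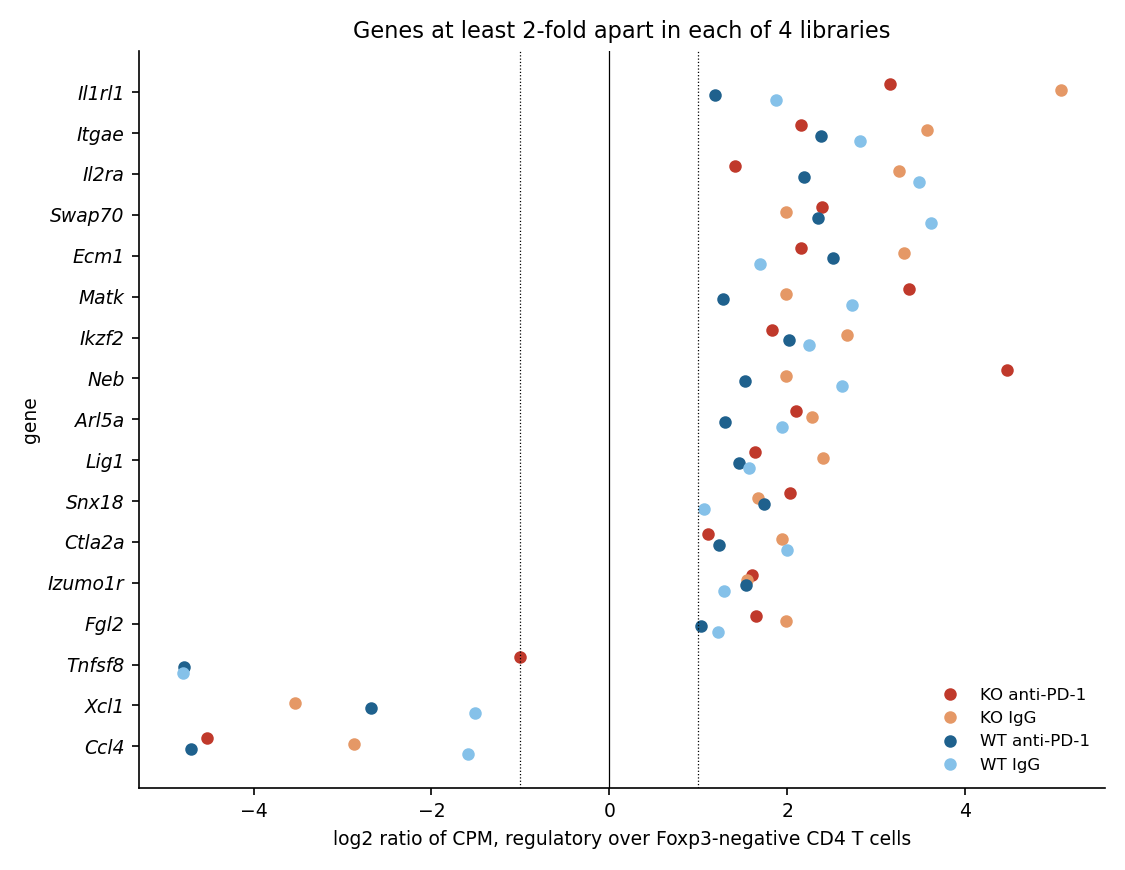
Log2 ratio of regulatory T cells over Foxp3-negative CD4 T cells in each library for the genes at least 2-fold higher or lower in every library. All 14 higher genes lie right of the dotted line at 1 in each library and the 3 lower genes left of that at -1, and a library with 0 UMIs of a gene in regulatory T cells has no point.

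The identity genes beyond Foxp3 (17 members) had a median log2 ratio of 1.22 over the 14 that passed the minimum level, against 0.11 over all genes, and 5 of the 17 were at least 2-fold higher in every library. Lrrc32 (GARP), which presents latent TGF-beta on the cell surface, was at 88.0, 27.9, 106 and 71.5 CPM, against 3.96, 7.01, 9.31 and 8.33 CPM. These levels rest on few UMIs on both sides. The 27.9 CPM in KO IgG stood for 1 UMI, below the floor of 3 UMIs (83.6 CPM there), too few for a level. Capg, an actin-capping protein, was at 616, 529, 479 and 551 CPM, against 360.4, 182, 212 and 242 CPM. Penk, which encodes enkephalins, went the other way in 3 libraries, with 35.2 CPM in KO anti-PD-1, 27.9 in KO IgG and 63.9 in WT anti-PD-1 regulatory T cells, against 436, 449 and 321 CPM. In WT IgG it was at 306 CPM, against 125 CPM.

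Costimulatory receptors of the TNF family were high. Tnfrsf4 was at 1409, 1476, 1043 and 776 CPM in regulatory T cells of KO anti-PD-1, KO IgG, WT anti-PD-1 and WT IgG, against 721, 379, 435 and 350 CPM in Foxp3-negative CD4 T cells. Tnfrsf18 was at 898, 1225, 671 and 848 CPM, against 554, 428, 398 and 330 CPM. Tnfrsf9 was at 264, 947, 617 and 674 CPM, against 202, 154, 119 and 55.0 CPM. For Tnfrsf9 the ratio was smallest in KO anti-PD-1, at 1.31, and largest in WT IgG, at 12.3, where 1 cell held 37.9% of the UMIs. Icos, a costimulatory receptor of activated T cells, was closer to its comparison level, at 493, 613, 468 and 419 CPM, against 396, 287, 349 and 295 CPM. The 12 costimulatory genes had a median log2 ratio of 0.95 over 10 that passed the minimum, and none of the 12 was 2-fold higher in every library.

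Of the 25 genes of effector and tissue regulatory T cells, 21 passed the minimum with a median log2 ratio of 1.06, and 3 were at least 2-fold higher in every library (Il1rl1, Itgae and Fgl2). Areg was at 1056 CPM in KO anti-PD-1, 279 in KO IgG, 159.7 in WT anti-PD-1 and 327 in WT IgG regulatory T cells, against 59.4, 42.1, 81.5 and 96.6 CPM. Klrg1, a receptor of differentiated effector cells, was at 123, 251, 31.9 and 204 CPM, against 15.8, 14.0, 20.9 and 9.99 CPM, and came from 2, 7, 3 and 7 cells. The granule protease Gzmb, at 475, 111, 106 and 490.2 CPM against 103, 77.1, 51.2 and 25.0 CPM, came mostly from single cells: 1 cell gave 51.9%, 50%, 40% and 77.1% of its UMIs. Maf, a transcription factor of interleukin-10 producing T cells, was at 546, 779.9, 468 and 715 CPM, against 380.2, 428, 424 and 195 CPM.

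Of the suppressive cytokines, Il10, Ebi3 and Il12a were scarcely captured, while Tgfb1 reached 20 UMIs over the WT anti-PD-1 and WT IgG pair. Il10 had 6, 0, 3 and 1 UMIs in regulatory T cells of KO anti-PD-1, KO IgG, WT anti-PD-1 and WT IgG, and Ebi3 had 0, 4, 6 and 2. Il12a had 0 UMIs in all 4 libraries. The checkpoint receptors other than Ctla4 were not high: Pdcd1, the target of the antibody, was at 106, 139, 95.8 and 71.5 CPM, against 209.9, 91.1, 165 and 103 CPM in Foxp3-negative CD4 T cells, and was higher in the regulatory T cells of the KO IgG library only. Lag3 was at 229, 167, 95.8 and 194 CPM, against 439.6, 91.1, 335 and 91.6 CPM, lower in both anti-PD-1 libraries and higher in both IgG libraries. The 12 inhibitory receptors had a median log2 ratio of -0.22 over the 6 that passed.

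Genes of conventional helper cells were low. Cd40lg, the helper signal to B cells and dendritic cells, had 1, 0, 2 and 0 UMIs in regulatory T cells, against 135, 91.1, 112 and 155 CPM in Foxp3-negative CD4 T cells. Over 4 libraries it was found in 2 cells (1.46%), against 20.2% of Foxp3-negative CD4 T cells. Ifng had 2, 0, 3 and 0 UMIs, and Il2, Il4, Il5, Il13, Il17a, Il21 and Il3 had 0 in every library. Tnfsf8 (CD30 ligand) was at 176 CPM in KO anti-PD-1 and at 10.6 and 10.2 CPM in WT anti-PD-1 and WT IgG, with 0 UMIs in KO IgG, against 283 to 379 CPM. The chemokine Ccl4 was at 141, 83.6, 85.2 and 61.3 CPM, against 3251, 609.9, 2220.3 and 185 CPM. Nkg7, a granule protein of cytotoxic cells, was at 599, 27.9, 362 and 296 CPM, against 2352, 477, 1757 and 563 CPM.

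Both resting-type and effector-type genes were detected among the 137 cells, with few genes seen in most cells. Ccr7, the receptor for lymph node chemokines, had a UMI in 22 cells (16.1%), against 18.1% of Foxp3-negative CD4 T cells and 2.39% of neutrophils. Tcf7 and Lef1, transcription factors of naive T cells, were in 10 cells (7.30%) and 13 cells (9.49%), against 29.4% and 20.7% of Foxp3-negative CD4 T cells. Of the effector-type genes, Tnfrsf9 was in 57 cells (41.6%), Itgae in 31 (22.6%) and Klrg1 in 19 (13.9%). The Th1-linked chemokine receptor Cxcr3 was in 40 (29.2%). Of the 57 cells with Tnfrsf9, 55 also held Ikzf2. Itgae and Klrg1 met in 7 cells, Klrg1 and Tnfrsf9 in 14, and Ccr7 and Klrg1 in 2. Ccr7 and Tnfrsf9 met in 11 of the 22 cells with Ccr7, so these 2 genes did not mark separate cells. Cells with more UMIs can show more genes, so these overlaps are counts and not signs of subsets.

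Gene levels of regulatory T cells were set side by side in 4 pairs of libraries, which share libraries with each other. A gene or list had to reach 20 UMIs over a pair to be counted, and a change of 1.5-fold is used as a size limit with no test. For KO IgG over WT IgG, 21.1% of 1000 genes lay at least 1.5-fold up and 16.8% at least 1.5-fold down. For WT anti-PD-1 over WT IgG these shares were 14% and 12.8% of 1392 genes, for KO anti-PD-1 over KO IgG 15.8% and 19.3% of 726 genes, and for KO anti-PD-1 over WT anti-PD-1 21.2% and 17.7% of 1120 genes. Scaling moved the split for the pairs with KO IgG. Of the genes past the limit, 55.7% were on the higher side in KO IgG over WT IgG, but 42.1% with TMM factors and 43.6% with median-of-ratios factors. In KO anti-PD-1 over KO IgG the higher side held 45.1%, but 60.1% and 61.3% with those factors. The median log2 ratio of all genes was 0.05 in the first pair, -0.08 with TMM and -0.06 with median-of-ratios factors, and 0.04 in the second, 0.15 and 0.16 with those factors.

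**Figure D5:**
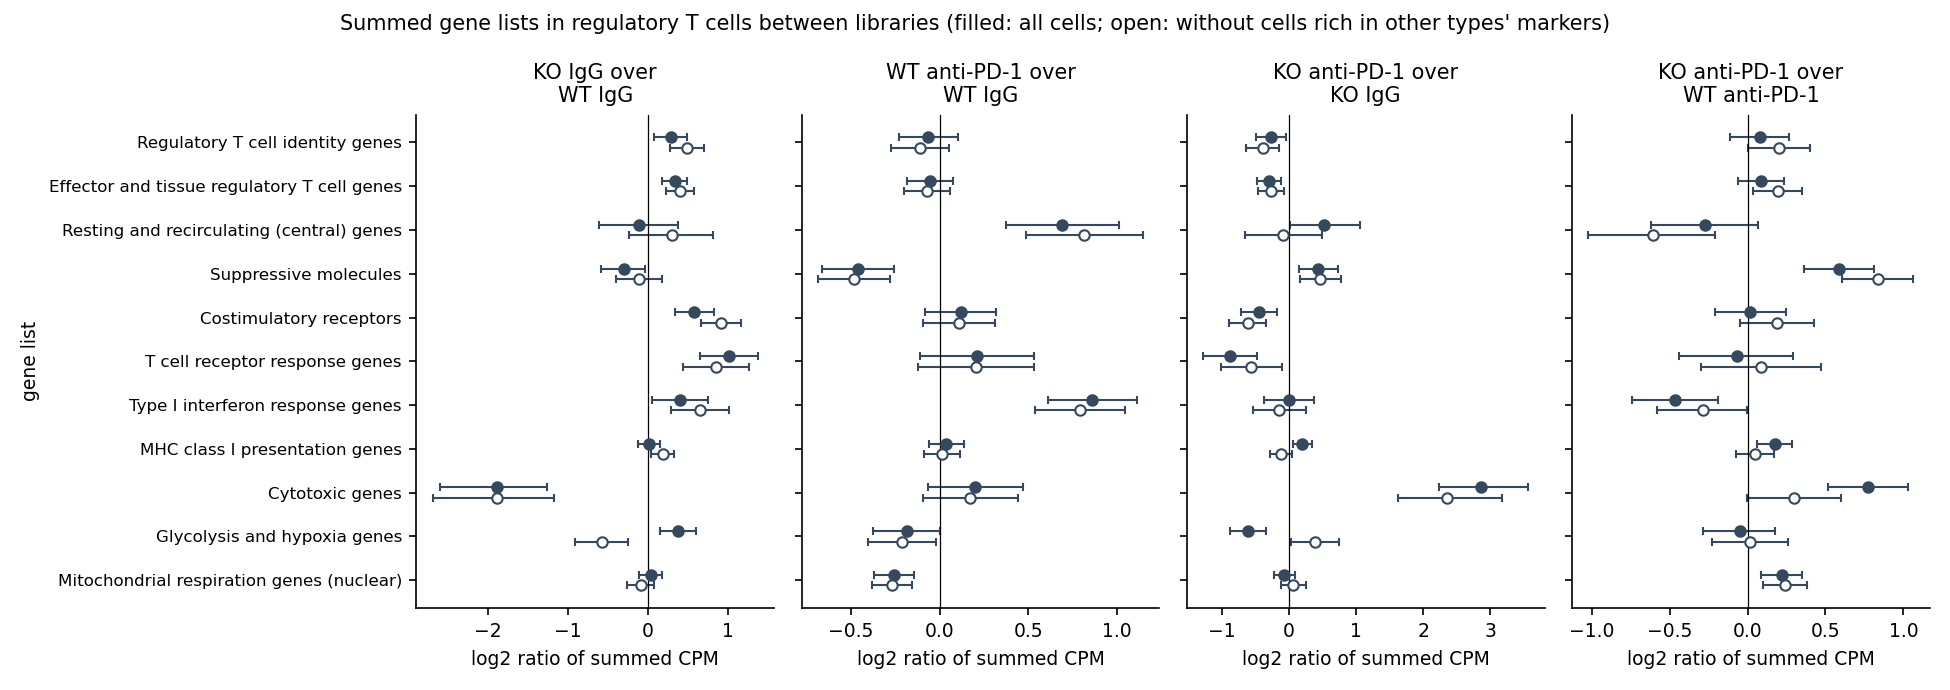
Log2 ratio of the summed level of gene lists in regulatory T cells for the 4 pairs of libraries, with 95% exact counting intervals, with all cells (filled) and without the 7 cells that hold markers of another cell type (open). The cytotoxic list lies left of 0 in KO IgG over WT IgG (a ratio of 0.269) and right of it in KO anti-PD-1 over KO IgG (7.30).

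In the KO IgG library, regulatory T cells had more RNA of costimulatory receptors and less of cytotoxic genes and ribosomal proteins than in WT IgG. The costimulatory genes together were at 6127 CPM in KO IgG and 4095 CPM in WT IgG, a ratio of 1.496 (1.26 to 1.77), and 1.89 (1.59 to 2.23) without the marked cells. Tnfrsf4 led them at 1476 CPM in KO IgG and 776 CPM in WT IgG, a ratio of 1.90 (1.31 to 2.74). Of the 12 genes 7 were counted, and 2 of these were at least 1.5-fold higher, against 21.1% of all 1000 genes. Without the marked cells 7 of 7 were, against 183 of 900 genes. Ikzf2 was at 2590.2 CPM in KO IgG and 1695 CPM in WT IgG, a ratio of 1.53 (1.17 to 1.98), and Il1rl1 at 473 and 153 CPM, a ratio of 3.09 (1.45 to 6.65). The identity list had a summed ratio of 1.22 (1.05 to 1.40) and the effector list 1.26 (1.13 to 1.41).

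The 13 cytotoxic genes summed to 613 CPM in KO IgG and 2277 CPM in WT IgG, a ratio of 0.269 (0.165 to 0.418). The chemokine Ccl5 was at 195 CPM in KO IgG and 1031 CPM in WT IgG, and Nkg7 at 27.9 and 296 CPM. Foxp3-negative CD4 T cells had 1725 CPM of this list in KO IgG and 2190.2 CPM in WT IgG, and CD8 T cells had 4121.5 CPM of Ccl5 in KO IgG and 6719 CPM in WT IgG. The part of RNA from other T cells in these levels was not tested. Genes of 40 or more UMIs over a pair, found in at least 10 cells of the higher library and with no cell above 20% of its UMIs, were counted at a 2-fold limit. Of 274 such genes, 16 were at least 2-fold lower, and they included the ribosomal protein genes Rpl12, at 752 CPM in KO IgG and 1899 CPM in WT IgG, and Rplp1, at 2534.5 and 5545 CPM. The ratio of Rpl12 was 0.396, and 0.627 with cells thinned to 1000 UMIs. Ribosomal protein genes (86 in all, counted together after these were seen) made up 18.8% of regulatory T cell UMIs in KO IgG and 29.1% in WT IgG, against 28.8% and 34.4% in Foxp3-negative CD4 T cells. Without the marked cells the shares were 19.7% and 29.0% in regulatory T cells. At least 2-fold higher were 3 of the 274: Wnk1, Fam49b and Cox17. Wnk1, a kinase of ion transport, was at 752 CPM in KO IgG and 276 CPM in WT IgG. The limit of 10 cells was harder to meet among the 21 cells of KO IgG than among the 35 of WT IgG. The counts of 16 and 3 therefore do not show which side held more changed genes.

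In WT tumours, anti-PD-1 went with more RNA of interferon-induced genes and of resting genes, and a smaller sum of suppressive genes. The type I interferon response list (34 genes) summed to 3864 CPM in WT anti-PD-1 and 2124 CPM in WT IgG, a ratio of 1.82 (1.53 to 2.17), and 1.73 without the marked cells. All 5 genes that were counted passed 1.5-fold, against 14% of all 1392 genes. Bst2 (tetherin), which holds budding virus at the cell surface, was at 298 CPM in WT anti-PD-1 and 112 CPM in WT IgG, a ratio of 2.65 (1.28 to 5.91). Ifi27l2a was at 1778 and 1144 CPM, a ratio of 1.55 (1.22 to 1.99). Isg15, a ubiquitin-like protein, was at 202 and 71.5 CPM, but 47.4% of its 19 UMIs in WT anti-PD-1 came from 1 cell, and its ratio of 2.83 became 1.73 (0.57 to 5.78) without the marked cells. In Foxp3-negative CD4 T cells the list was at 2695 CPM in WT anti-PD-1 and 2162 CPM in WT IgG. In KO tumours the list was at 2799.6 CPM with anti-PD-1 and 2813 CPM with IgG, a ratio of 0.995 (0.771 to 1.29).

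The resting list (15 genes) summed to 2278 CPM in WT anti-PD-1 and 1409 CPM in WT IgG, a ratio of 1.62 (1.30 to 2.02). Klf2, a factor that keeps T cells recirculating, was at 447 and 163 CPM and Ccr7 at 202 and 81.7 CPM, while the interleukin-7 receptor Il7r was at 266 and 429 CPM. The 16 suppressive genes summed to 3629.8 CPM in WT anti-PD-1 and 4994 CPM in WT IgG, a ratio of 0.727 (0.631 to 0.836). Of the 8 members counted, 4 were at least 1.5-fold lower (Areg, Gzmb, Lag3 and Lgals1), against 12.8% of all genes. Another 3 were at least 1.5-fold higher (Fgl2, Nt5e and Tgfb1), against 14% of all genes. Gzmb had 10 UMIs in WT anti-PD-1 and 48 in WT IgG. Most of those 48 came from a single cell, and they also count in the summed level. Lgals1 (galectin-1), a secreted lectin that dampens activated T cells, was at 1565 CPM in WT anti-PD-1 and 2451 CPM in WT IgG. Areg was at 159.7 and 327 CPM and Ctla2a at 447 and 909 CPM. H2-Ab1, an MHC class II chain of antigen-presenting cells, was at 341 CPM in WT anti-PD-1 and 133 CPM in WT IgG, with dendritic cell markers at 1405 CPM in WT anti-PD-1 and 786 CPM in WT IgG, and the part of such RNA was not tested.

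Of 512 genes within the limits on UMIs and cells, 7 were at least 2-fold higher, among them the splicing factor Srsf5 at 330.0 CPM in WT anti-PD-1 and 112 CPM in WT IgG and the antiproliferative gene Btg2 at 373 and 143 CPM, and 7 were lower, among them Ctla2a and Glrx. With cells thinned to 1000 UMIs the ratio was 6.03 for Srsf5, in place of 2.94, 0.287 for Ctla2a, in place of 0.492, and 1.15 for Glrx, in place of 0.494.

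In KO tumours, regulatory T cells of the anti-PD-1 library had more RNA of cytotoxic and Th1-type genes than those of the IgG library. The cytotoxic list summed to 4472 CPM in KO anti-PD-1 and 613 CPM in KO IgG, a ratio of 7.30 (4.72 to 11.9), and 5.13 (3.10 to 9.05) without the marked cells. Ccl5 was at 2623.5 CPM in KO anti-PD-1 and 195 CPM in KO IgG, with 61.7% of the 149 UMIs in KO anti-PD-1 from 1 marked cell. Nkg7 was at 599 CPM in KO anti-PD-1 and 27.9 CPM in KO IgG, that is 34 UMIs against 1. The Th1-type list, which shares Ccl5 and Nkg7 with it, was at 4049.7 CPM in KO anti-PD-1 and 752 CPM in KO IgG, a ratio of 5.39 (3.61 to 8.35), and 3.23 (2.06 to 5.29) without the marked cells. Foxp3-negative CD4 T cells stood the same way for the cytotoxic list, with 11255 CPM in KO anti-PD-1 and 1725 CPM in KO IgG. The 11 markers of gamma-delta T, NK and NKT cells, with 9 at 0 in each library, were at 1268 CPM in KO anti-PD-1 and 1838 CPM in KO IgG with all cells, and at 1200.2 and 186 CPM without the marked cells, a ratio of 6.44 (2.60 to 20.6). Only Tyrobp and Fcer1g, adaptors that NK and myeloid cells share, were detected, with Trdc, Ncr1 and Klrb1c at 0 UMIs, and the part of such cells was not tested. Areg was at 1056 CPM in KO anti-PD-1 and 279 CPM in KO IgG, a ratio of 3.79 (1.93 to 8.31), from 8 and 7 cells. Costimulatory genes were at 4508 CPM in KO anti-PD-1 and 6127 CPM in KO IgG, a ratio of 0.736 (0.612 to 0.885). Of 208 genes within the limits on UMIs and cells, 3 were at least 2-fold higher: Selenow and Gpx4, selenoproteins of redox defence, and the cold-induced RNA-binding protein Rbm3, at 1215 CPM in KO anti-PD-1 and 557 CPM in KO IgG. The ratio of Gpx4 was 2.02, with an interval of 0.970 to 4.61 that included 1. The ratio of Rbm3 was 2.18, and 1.18 with cells thinned to 1000 UMIs. None of the 208 was 2-fold lower, but such a gene had to be found in at least 10 of the 21 KO IgG cells. Genes carried by 1 cell were not among the 208. The glycolysis and hypoxia list turned with the marked cells: its ratio was 0.654 (0.544 to 0.785) with all cells and 1.30 (1.02 to 1.68) without the marked cells.

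Under anti-PD-1, the summed RNA of suppressive molecules was higher in regulatory T cells of KO tumours than of WT tumours. With all cells, most members counted stayed under 1.5-fold. The suppressive list summed to 5458 CPM in KO anti-PD-1 and 3629.8 CPM in WT anti-PD-1, or a ratio of 1.504 (1.29 to 1.76), and 1.79 without the marked cells. The 7 members counted had a median log2 ratio of 0.54, against 0.04 over all genes. Of these 7, 3 were at least 1.5-fold higher and 0 lower, against 21.2% and 17.7% of all genes. Without the marked cells 5 were higher and 0 lower, against 220 and 155 of 1028 genes. Areg was at 1056 CPM in KO anti-PD-1 and 159.7 CPM in WT anti-PD-1, or a ratio of 6.62 (3.71 to 12.6), although 35% of its 60 UMIs in KO anti-PD-1 came from 1 cell. Gzmb, also of this list and mostly from single cells, was at 475 CPM in KO anti-PD-1 and 106 CPM in WT anti-PD-1. Ikzf2 was lower, at 1338 CPM in KO anti-PD-1 and 2033 CPM in WT anti-PD-1, or a ratio of 0.658 (0.498 to 0.863). Il7r was at 563 CPM in KO anti-PD-1 and 266 CPM in WT anti-PD-1, and the inflammasome adaptor Pycard at 475 and 181 CPM. Of 387 genes within the limits on UMIs and cells, 9 were at least 2-fold higher and 14 lower. The cell limit was harder to meet in KO anti-PD-1 (33 cells) than in WT anti-PD-1 (48 cells), so these counts are on unequal terms. Among the lower genes were the cytokine Mif, at 264 CPM in KO anti-PD-1 and 809 CPM in WT anti-PD-1, the chaperone Hsp90ab1, at 563 and 1309 CPM, the integrin chain Itga4, at 141 and 351 CPM, and the T cell kinase Lck, at 141 and 341 CPM. Rbm3 was high in KO anti-PD-1 here too, at 1215 CPM, against 553.5 CPM in WT anti-PD-1, and Foxp3-negative CD4 T cells had 946.5 CPM in KO anti-PD-1 and 586.5 CPM in WT anti-PD-1. With cells thinned to 1000 UMIs the ratio was 1.52 for Rbm3, in place of 2.19, 4.26 for Pycard, in place of 2.63, and 0.158 for Itga4, in place of 0.401.

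MHC class I presentation genes and oxidative phosphorylation genes were nearly level between all pairs. With all cells the summed ratios were 1.01 to 1.15 for MHC class I and 0.837 to 1.16 for oxidative phosphorylation. The MHC class I ratio of KO anti-PD-1 over KO IgG turned with the marked cells. It was 1.15 (1.04 to 1.27) with all cells and 0.918 (0.821 to 1.03) without them. Against Foxp3-negative CD4 T cells, MHC class I genes had a median log2 ratio of 0.33 over all 17 members, and oxidative phosphorylation genes 0.02 over 24.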

How the data were processed

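Each library was a 10x 3′ v2 single-cell library of live lung cells. The deposited files are matrices of UMI counts per gene and barcode made by the authors, with Cell Ranger and bcl2fastq named in the submitters' processing notes and software version 3.0.0 per the file headers. Those notes name hg19, while all 31053 gene identifiers are mouse Ensembl ones, so no coordinates are given. A single list of 6074 barcodes came with the matrices and names no library, so barcodes shared between libraries were not counted.

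From the 25213 deposited barcodes, cells were kept at 200 or more genes and at most 10% mitochondrial UMIs. No kept cell had under 500 UMIs. Scrublet scores over 0.25 marked 1 regulatory T cell in each library, and these were kept, with their removal tried as an alternative. UMIs were summed over the cells of a library and divided by their total (CPM). Ratios have exact conditional Poisson intervals and shares have Clopper-Pearson intervals, all at 95%. No test was made between groups, because each is 1 library. Counts were also drawn from the Poisson model that the interval assumes, so a share near 95% follows from that model. On these counts the interval held the true ratio in 95.5% to 97.5% of genes across the 4 pairs. There it excluded no change for 53.3% to 66.3% of genes changed 2-fold and for 93.7% to 98.0% of those changed 4-fold. How well it holds where 1 cell carries much of a gene's UMIs, as for Gzmb and Il2ra, was not tested.

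Regulatory T cells were compared with Foxp3-negative T cells that held a Cd4 UMI and met the other limits, over the 2711 genes whose mean over both populations and all libraries was at least 50 CPM, with 0 UMIs on the lower side set to a floor of 3. Lists were counted by members with at least 20 UMIs. Genes named between libraries were the 10 largest and 10 smallest ratios at 2-fold or more with at least 40 UMIs, at least 10 cells in the higher library and no cell above 20% of its UMIs, besides members of 31 lists. Genes named against Foxp3-negative CD4 T cells were the 20 largest and 10 smallest ratios and those 2-fold apart in every library. Members and lists were chosen with earlier results of these data known. Analyses used Python 3.11.15, numpy 2.4.6, scipy 1.17.1, pandas 2.3.3, scanpy 1.11.5, and edgeR 4.0.16 for TMM factors. Alternatives covered filters, depth, scaling, doublet scores and cells with markers of other types.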

Additional observations from a re-analysis of the deposited data

Results flagged for a closer look

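The results below differ between the KO and WT tumours, or between antibodies, in opposite directions of at least 1.5-fold, each with a counting interval that excludes a ratio of 1. The difference itself was not tested, because each group is 1 library, and several pairs share a library.

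Under anti-PD-1 over IgG, Areg was 3.79 times (1.93 to 8.31) as high in KO libraries and 0.489 times (0.246 to 0.929) in WT libraries. The cytokine Mif was 0.395 times (0.193 to 0.785) as high in KO libraries and 1.84 times (1.25 to 2.74) in WT libraries. Dendritic cell markers were 0.300 times (0.248 to 0.363) as high in KO libraries and 1.79 times (1.34 to 2.40) in WT libraries, and H2-Ab1, one of them, 0.244 times (0.153 to 0.380) and 2.57 times (1.31 to 5.33). In the KO pair these followed 1 cell of KO IgG: without the cells that hold markers of another type, the dendritic cell list had a ratio of 1.33 (0.849 to 2.14) in KO libraries and 1.76 (1.31 to 2.37) in WT libraries.

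For KO over WT, Ikzf2 was 0.658 times (0.498 to 0.863) as high under anti-PD-1 and 1.53 times (1.17 to 1.98) under IgG. Gnas, a signalling G protein, was 2.15 times (1.15 to 4.06) as high under anti-PD-1 and 0.412 times (0.169 to 0.872) under IgG. The cytotoxic list had ratios of 1.71 (1.43 to 2.04) under anti-PD-1 and 0.269 (0.165 to 0.418) under IgG, and the Th1-type list 1.63 (1.35 to 1.96) and 0.396 (0.254 to 0.595). Without the cells that hold markers of another type, the ratios under anti-PD-1 were 1.23 (0.996 to 1.51) for the cytotoxic list and 1.10 (0.881 to 1.37) for the Th1-type list, neither past 1.5-fold.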

How the results depend on the processing

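Each library is 1 group with few regulatory T cells, so depth limits most values between libraries, and levels under about 20 UMIs a pair were not counted. No paired analysis was possible because each group has 1 library, and the comparison with Foxp3-negative CD4 T cells, which is made within each library, carries no test. The 49 named gene ratios gave 343 values under the alternatives, of which 333 stayed in direction and within their interval, 9 moved and 1 reversed. The 60 list medians gave 563 values, of which 432 stayed, 123 moved and 8 reversed.

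With at least 2 Foxp3 UMIs, shares of kept cells were 0.0705% (KO anti-PD-1), 0.166% (KO IgG), 0.223% (WT anti-PD-1) and 0.191% (WT IgG). Ratios of shares were 0.424 (KO anti-PD-1 over KO IgG) and 0.316 (KO anti-PD-1 over WT anti-PD-1) for kept cells and 0.235 (KO anti-PD-1 over KO IgG) and 0.416 (KO anti-PD-1 over WT anti-PD-1) for CD4-type T cells. Genes 2-fold apart from CD4 T cells in every library numbered 22 higher. With a minimum of 10 UMIs, genes at least 1.5-fold higher made up 21.6% (WT anti-PD-1 over WT IgG). List medians as log2 ratios were 0.49 (effector, KO IgG over WT IgG). With a minimum of 60 UMIs, genes at least 1.5-fold higher made up 9.76% (KO IgG over WT IgG) and 5.5% (WT anti-PD-1 over WT IgG). Genes at least 1.5-fold lower made up 6.94% (WT anti-PD-1 over WT IgG) and 8.97% (KO anti-PD-1 over KO IgG). List medians as log2 ratios were -0.046 (migration, KO IgG over WT IgG), 0.060 (identity, WT anti-PD-1 over WT IgG), -0.27 (effector, WT anti-PD-1 over WT IgG), -0.69 (resting, WT anti-PD-1 over WT IgG), -0.449 (identity, KO anti-PD-1 over KO IgG), 0.039 (glycolysis, KO anti-PD-1 over KO IgG) and 0.22 (effector, KO anti-PD-1 over WT anti-PD-1). In cells with no UMI of Lyz2, S100a8, S100a9 or C1qa, genes at least 1.5-fold higher made up 12% (KO IgG over WT IgG), 50.7% (WT anti-PD-1 over WT IgG) and 51.9% (KO anti-PD-1 over KO IgG). Genes at least 1.5-fold lower made up 48% (KO IgG over WT IgG) and 7.79% (KO anti-PD-1 over KO IgG). List medians as log2 ratios were -0.38 (effector, KO IgG over WT IgG), -1.28 (identity, WT anti-PD-1 over WT IgG), -0.19 (effector, WT anti-PD-1 over WT IgG), -0.022 (effector, KO anti-PD-1 over KO IgG), -0.41 (suppressive, KO anti-PD-1 over KO IgG), -0.63 (identity, KO anti-PD-1 over WT anti-PD-1) and 0.86 (effector, KO anti-PD-1 over WT anti-PD-1). Against all Foxp3-negative T cells with no CD8 UMI, genes 2-fold apart from CD4 T cells in every library numbered 35 higher and 12 lower. With cells thinned to 1000 UMIs, shares of kept cells were 0.283% (KO anti-PD-1), 0.184% (KO IgG), 0.434% (WT anti-PD-1) and 0.273% (WT IgG). Genes at least 1.5-fold lower made up 12.4% (KO anti-PD-1 over KO IgG). List medians as log2 ratios were -0.21 (effector, KO IgG over WT IgG), -0.66 (migration, KO IgG over WT IgG), 0.20 (identity, WT anti-PD-1 over WT IgG), -0.26 (effector, WT anti-PD-1 over WT IgG), -0.13 (effector, KO anti-PD-1 over KO IgG), 0.27 (glycolysis, KO anti-PD-1 over KO IgG), 0.19 (identity, KO anti-PD-1 over WT anti-PD-1) and 0.78 (resting, KO anti-PD-1 over WT anti-PD-1). Glrx had a log2 ratio of 0.20 (WT anti-PD-1 over WT IgG). Genes 2-fold apart from CD4 T cells in every library numbered 22 higher and 0 lower. With a mean over cells, list medians as log2 ratios were 0.054 (identity, WT anti-PD-1 over WT IgG), -0.54 (identity, KO anti-PD-1 over KO IgG) and 0.26 (effector, KO anti-PD-1 over WT anti-PD-1). Without cells of another type's markers, list medians as log2 ratios were 0.62 (identity, KO IgG over WT IgG), 0.52 (effector, KO IgG over WT IgG), 0.59 (glycolysis, KO anti-PD-1 over KO IgG) and 0.60 (effector, KO anti-PD-1 over WT anti-PD-1). Genes 2-fold apart from CD4 T cells in every library numbered 23 higher and 5 lower. Leaving out 1 library at a time gave 19 to 35 genes 2-fold higher and 6 to 10 lower in the libraries left. That the 14 higher genes were among them each time is no check. A gene 2-fold higher in every library is also so in any smaller set of them. The cause of these changes was not tested.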

Other observations

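Ribosomal protein genes took a smaller share of RNA in regulatory T cells than in other T cells of every library. They made up 21.6% of UMIs in KO anti-PD-1, 18.8% in KO IgG, 27.7% in WT anti-PD-1 and 29.1% in WT IgG regulatory T cells. Foxp3-negative CD4 T cells of these libraries had 26.0%, 28.8%, 29.6% and 34.4%, and CD8 T cells had 35.5%, 40.1%, 33.9% and 42.1%. Neutrophils had 8.97% to 10.98%. Without the cells that hold markers of another type, the regulatory T cells had 23.05%, 19.7%, 28.0% and 29.0%. Single cells ran from 4.68% to 54.4%.

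Chemokine receptors stood above Foxp3-negative CD4 T cells in part. Ccr2, the receptor for monocyte chemoattractants, was at 264, 418, 224 and 214 CPM in KO anti-PD-1, KO IgG, WT anti-PD-1 and WT IgG regulatory T cells, against 123, 35.1, 121 and 102 CPM. Cxcr3 was at 352, 139, 128 and 123 CPM, against 150.5, 56.1, 90.8 and 102 CPM. Ccr8, a receptor known from tumour regulatory T cells, had 1, 2, 3 and 3 UMIs, too few for a level.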
